A study of Populus ussuriensis with 18 samples.

Results

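The comparison described here is that of roots of Populus ussuriensis after 120 h in polyethylene glycol (PEG) with roots at 0 h. Its members were chosen by the time in the sample labels: 3 libraries of 120 h and 3 of 0 h, 6 of the 18 libraries of the series. All samples were roots of wild-type, 3-week-old seedlings grown from stem segments of in vitro plants on half-strength Murashige and Skoog medium. The seedlings of 120 h had been moved into liquid medium with 6% PEG 6000, a polymer that lowers the water potential around the root. Each sample was a pool of at least 6 seedlings, so the replicate spread is one between pools. The other treated roots were harvested after 6, 12, 24 and 48 h, with 3 libraries each. The labels name no seedlings kept in liquid without PEG, and therefore PEG and the transfer to liquid cannot be told apart at 120 h. The sources say that roots were harvested at the same time, without saying whether this is 1 common harvest or the same hour of the day, so a difference in age or clock hour between the groups cannot be told apart either. The libraries were made from total RNA and read on an Illumina system, and the values are FPKM, fragments scaled to the length of a transcript and to the mapped fragments of a library.

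In roots short of water, abscisic acid (ABA) binds to receptors of the PYL family, and the bound receptors hold back protein phosphatases of type 2C that otherwise keep the pathway off. Downstream, cells accumulate protective hydrophilic proteins such as dehydrins and late embryogenesis abundant (LEA) proteins, enzymes that remove reactive oxygen and carbonyl compounds, and chaperones. Root growth, cell wall construction and nutrient uptake are adjusted over the following days, so that a root after long exposure can differ from a root in the first hours.

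A total of 12080 of 12994 transcripts had at least 1 FPKM in at least 3 libraries and were tested with limma on log2(FPKM + 1). The 6 libraries listed 940 to 1013 transcripts at 0 and had rough depths of 10000000 to 14000000 fragments. Replicate 1 of 120 h stood apart from the other 120 h libraries. The robust SD of the log2 ratio between 2 libraries, over transcripts with a mean above 20 FPKM and longer than 500 bases, was 0.101 between replicates 2 and 3 of 120 h and 0.087 to 0.115 among the 0 h libraries. Replicate 1 of 120 h was at 0.204 from replicate 2 and 0.184 from replicate 3, which is about as far as it was from replicates 1 and 2 of 48 h (0.191 and 0.201). In 1018 transcripts it lay more than 0.5 log2 units beyond both other 120 h libraries, against 374 and 388 for those libraries, and 183 of these transcripts were among the calls given below. Replicate 3 of 48 h also stood apart, at 0.193 and 0.187 from the other 48 h libraries. On the plain log2 ratio of FPKM, the widest pair within a time was replicates 1 and 2 of 24 h, at 0.226. Replicates 1 and 2 of 120 h were at 0.208 on that scale. No library of 24 h was left out in any setting. Calls that are lost without replicate 1 of 120 h, and values on which that library bears most, are given with and without it.

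Compared with 0 h, 313 transcripts were up-regulated and 259 were down-regulated at 120 h, which is 2.59% and 2.14% of those tested (4.74% together). A call needed a p below 0.05 after Benjamini-Hochberg adjustment over all transcripts, and a log2 fold change of at least 1 in either direction, where the log2 fold change is the difference of the means on the log2(FPKM + 1) scale. The median log2 fold change over all transcripts was -0.04, and that of the called transcripts was 1.37 among the rises and -1.32 among the falls. The libraries of the 2 times did not overlap in 559 of the 572 calls, beside 47.1% of all transcripts tested. Without replicate 1 of 120 h there were 289 rises and 298 falls, and 473 of the 572 calls were kept, none of them in the opposite direction. The rises then made up 49.2% of the calls in place of 54.7%. Without a fold minimum, 1819 rises and 2160 falls passed the adjusted p (15.1% and 17.9%). At the fold minimum, 104 calls lay below an absolute log2 fold change of 1.1, and 133 transcripts with an adjusted p under the threshold lay between 0.9 and 1. A Swiss-Prot entry name was at hand for 123 of the 572 calls, 54 rises and 69 falls, and the named transcripts below are homologues judged by that name. The annotation tables at hand were shortened, so entry names and gene lists cover only part of the transcripts, and a count such as 28 peroxidases is of those listed, not of all in the plant.

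**Figure D1:**
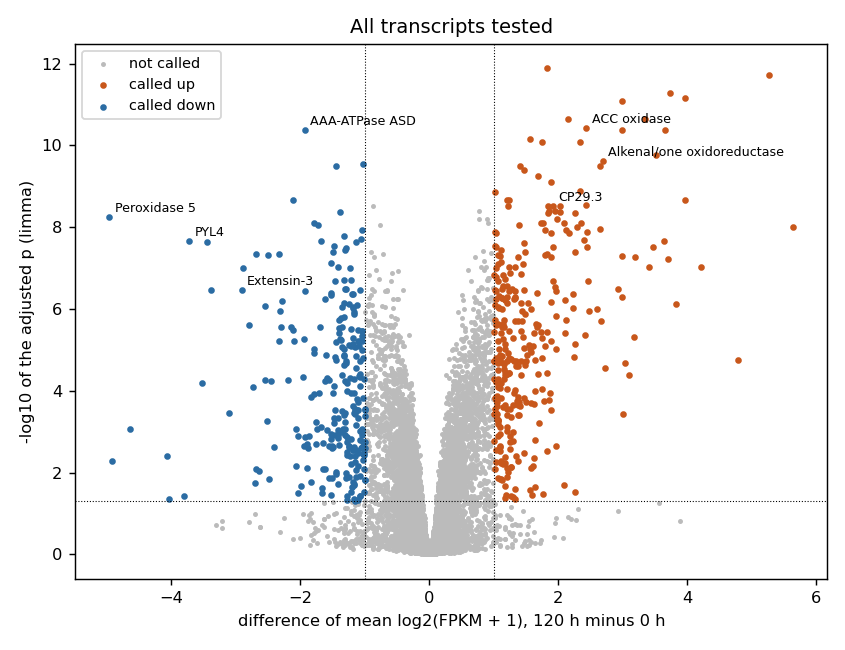
Each point is 1 of the 12080 transcripts tested, with the log2 fold change of 120 h against 0 h on the x axis and -log10 of limma's adjusted p on the y axis, and the dotted lines mark the thresholds of a call. The 313 rises and 259 falls lie on both sides, and the falls of peroxidase 5 and PYL4 lie far to the left, at -4.96 and -3.72.

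Most of the gene lists used below were drawn from tables of transcripts that the study had called changed on these same samples, so the counts of changed members are not independent evidence, and they only describe which way the members stood after 5 days. The shares over all transcripts to set beside these counts were 2.59% rises and 2.14% falls, and without a fold minimum 15.1% and 17.9%. Against the earlier treated times they were 1.48% and 3.62%. Entries with the same name can be isoforms or copies of 1 gene between which the read assignment may have split fragments. In whole roots, fewer cells of a type and less RNA per cell cannot be told apart in any of these values.

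Among the transcripts of ABA signalling, receptors fell and a phosphatase rose. The list held 11 transcripts, of which 3 rose and 5 fell (median log2 fold change -0.42, against -0.04 over all transcripts). The PYL4 homologue f2p60_1246_27481, an ABA receptor, had 244, 241 and 249 FPKM at 0 h and 16.0, 18.5 and 18.4 FPKM at 120 h. All 3 libraries of 120 h lay far below all 3 of 0 h, but groups without overlap were a condition of its choice. The mean fell to 0.072 of its 0 h level (log2 fold change -3.72, SE 0.23, adjusted p = 2.2e-08). The PYL6 homologue f2p60_1249_27389 had 166, 181 and 172 FPKM at 0 h and 54.0, 53.9 and 51.6 FPKM at 120 h (log2 fold change -1.68, SE 0.11, adjusted p = 2.2e-08). Its groups did not overlap either. A second PYL4 homologue, f2p49_1112_10090, fell with -1.49 (SE 0.22, adjusted p = 0.00011). The third PYL4 homologue, f2p60_1117_287682, fell from 71.9 ± 3.58 to 26.5 ± 1.13 FPKM (SD, n = 3), and the homologue of abscisic acid 8'-hydroxylase 1 (f4p60_2036_4219), which breaks down ABA, fell from 17.1 to 6.76 FPKM. These last 2 transcripts were chosen after their values were seen. The same holds for the zeaxanthin epoxidase, type 2C phosphatase, NCED and second alcohol dehydrogenase transcripts named below. It also holds for those of LHY, Lea5, a small heat shock protein, the first shikimate enzyme and some peroxidases.

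The rises in the list were of enzymes that work on carotenoids, the source of ABA, and of a phosphatase of the pathway. Carotenoid cleavage dioxygenase 4 (f7p60_2153_21415) had 6.75, 5.61 and 5.36 FPKM at 0 h and 33.8, 17.1 and 17.9 FPKM at 120 h (log2 fold change 1.73, SE 0.18, adjusted p = 3.6e-06). Its highest value was that of replicate 1 of 120 h, and without that library the log2 fold change was 1.43. The zeaxanthin epoxidase homologue f7p60_892_12070, another enzyme that works on carotenoids, went from 5.62 ± 1.78 to 16.4 ± 6.67 FPKM (log2 fold change 1.37, adjusted p = 0.00021). Its highest value was again that of replicate 1 of 120 h (24.1 FPKM, against 12.9 and 12.3). Protein phosphatase 2C 3 (f2p60_1754_23479) rose from 1.53 ± 0.244 to 6.04 ± 1.09 FPKM (adjusted p = 3.5e-07). The NCED1 homologue f2p21_2499_2742, which makes the committed step of ABA synthesis, had means of 0.46 FPKM at 0 h and 0.94 FPKM at 120 h and did not pass the test against 0 h (adjusted p = 0.0718), after a mean of 23.4 FPKM at 12 h.

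Among protective proteins, some dehydrin-type transcripts were above their 0 h level after 5 days. Of 6 dehydrin-type transcripts 3 rose and 0 fell (median log2 fold change 1.06), and 5 passed the adjusted p without the fold minimum. The SRC1 homologue f4p60_678_14205 had 595, 524 and 544 FPKM at 0 h and 1214, 1371 and 1283 FPKM at 120 h (log2 fold change 1.22, SE 0.06, adjusted p = 3.1e-09). All 3 libraries of 120 h lay far above those of 0 h in this abundant transcript. A second SRC1 homologue, f8p60_825_32305, had 594, 501 and 549 FPKM at 0 h and 1164, 1467 and 1502 FPKM at 120 h (log2 fold change 1.32, SE 0.11, adjusted p = 5.0e-07). The third, f2p60_1369_7946, had 4.47, 3.44 and 3.67 FPKM at 0 h and 7.71, 17.6 and 20.3 FPKM at 120 h, with replicate 1 the lowest. Its log2 fold change was 1.64, and 2.04 without that library.

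The desiccation-related protein PCC3-06 (f2p60_983_30209), a name first given to a protein of a resurrection plant, had the largest log2 fold change of the rises with an entry name. It had 8.63, 9.29 and 10.7 FPKM at 0 h and 61.6, 70.1 and 74.8 FPKM at 120 h, 7.21 times the 0 h mean (log2 fold change 2.73, SE 0.34, adjusted p = 2.8e-05). A pair of homologues of the chaperone dnaJ 11, a co-chaperone of HSP70 in plastids, also rose. One of them, f2p60_820_32228, had 9.74, 6.46 and 8.17 FPKM at 0 h and 36.9, 42.6 and 46.9 FPKM at 120 h (log2 fold change 2.25, SE 0.12, adjusted p = 4.6e-09). The other, f3p60_810_32354, had a log2 fold change of 1.88 (adjusted p = 1.4e-08). They were the only calls among 27 transcripts of HSP70, HSP90, chaperonins and DnaJ proteins, whose median was -0.10. Of 13 LEA and NDR1/HIN1-like transcripts 1 rose and 2 fell. The LEA protein D-29 homologue f2p37_1282_27056 rose from 17.0 to 41.3 FPKM, and SENESCENCE-ASSOCIATED GENE 21 (f2p60_765_32980) fell from 461 to 176 FPKM. NDR1/HIN1-like protein 10 (f2p60_1056_29458) fell as well, with 73.3, 74.4 and 75.7 FPKM at 0 h and 39.96, 20.6 and 22.8 FPKM at 120 h.

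Among enzymes of detoxification, 2 reductases of reactive carbonyls and 2 scavengers of reactive oxygen rose, while the calls among glutathione S-transferases were falls. NADPH-dependent alkenal/one oxidoreductase (f7p60_1528_6951), which reduces toxic products of lipid peroxidation, had 7.47, 8.90 and 7.70 FPKM at 0 h and 44.4, 65.5 and 63.3 FPKM at 120 h, 7.19 times the 0 h mean (log2 fold change 2.69, SE 0.11, adjusted p = 2.4e-10). A second transcript of this name, f3p60_1416_25856, had 23.6, 24.1 and 25.7 FPKM at 0 h and 110, 54.6 and 57.7 FPKM at 120 h, with a log2 fold change of 1.49 that was 1.17 without replicate 1. These were the 2 calls among 7 aldehyde and alkenal reductases. Peroxiredoxin Q (f2p60_993_30125), a plastid enzyme that reduces peroxides, had 34.6, 37.8 and 35.5 FPKM at 0 h and 169, 88.5 and 100 FPKM at 120 h (log2 fold change 1.65, SE 0.16, adjusted p = 2.3e-06, and 1.37 without replicate 1). A copper-zinc superoxide dismutase (f2p28_837_12827), which turns superoxide into hydrogen peroxide, had 56.7, 37.9 and 39.4 FPKM at 0 h and 85.5, 91.8 and 107 FPKM at 120 h (log2 fold change 1.09, adjusted p = 0.00075). These 2 were the calls among 8 catalases, ascorbate peroxidases, superoxide dismutases and peroxiredoxins, and the second was lost without replicate 2 of 0 h or replicate 3 of 120 h. Of 20 glutathione S-transferases, which join glutathione to toxic compounds, 0 rose and 5 fell (median log2 fold change -0.09). Without a fold minimum, 6 were higher and 6 were lower than at 0 h. In the comparison with the earlier treated times, 8 were lower. The 5 falls became 4 without replicate 1 of 120 h, 3 without any 1 library of 0 h and 2 without replicate 2 or 3 of 120 h. A set of 3 transcripts of GST 23 were among them, with log2 fold changes of -1.67 (f2p60_903_31165), -1.27 (f2p60_822_12727) and -1.25 (f4p60_919_11774). In each of these the replicate 1 library was the highest of 120 h, and f2p60_903_31165 had 34.9, 29.1 and 31.9 FPKM at 0 h and 19.3, 6.64 and 6.17 FPKM at 120 h. The call of f2p60_822_12727 was narrow (adjusted p = 0.0453). It was lost after rescaling by median ratios, with a replicate block and with the 6 libraries alone. Leaving out any 1 library of 0 h, or replicate 2 or 3 of 120 h, also lost it.

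**Figure D2:**
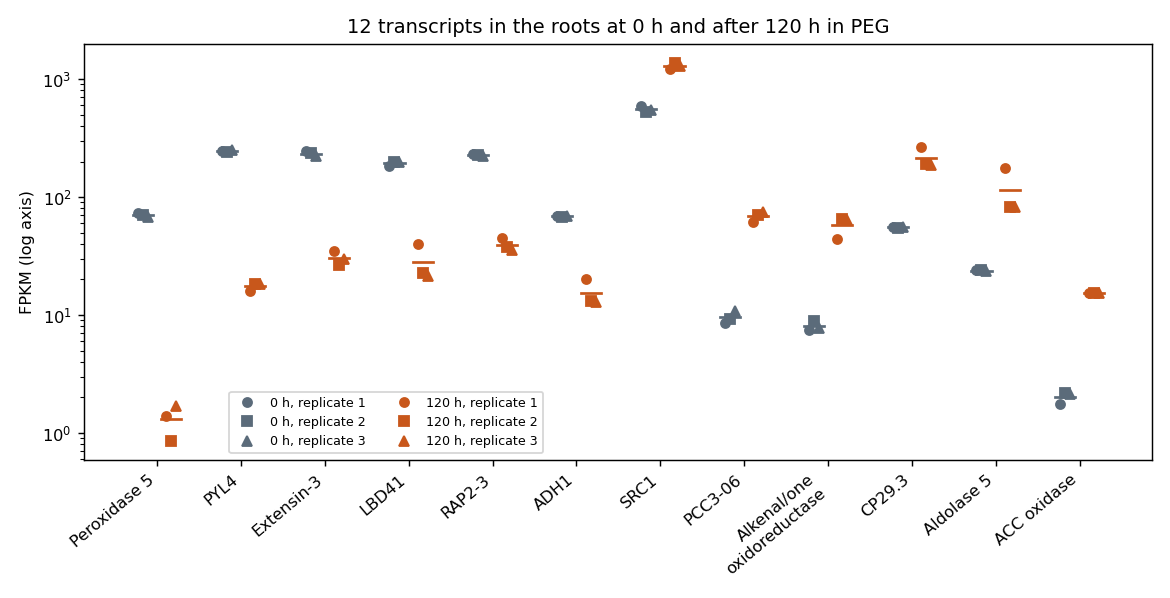
FPKM on a log axis of 12 transcripts in the 3 libraries of 0 h (grey) and the 3 of 120 h (orange), with marker shapes for the replicates and a bar at each mean. The groups do not overlap in any of the 12, which for all but SRC1 was a condition of their choice. Replicate 1 of 120 h (orange circle) lies away from the other 2 in LBD41, ADH1, CP29.3 and aldolase 5.

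All 6 transcripts of the low-oxygen list fell at 120 h, with a median log2 fold change of -2.21, and all 6 also fell without replicate 1 of 120 h. LOB domain-containing protein 41 (f5p60_1318_8262), a transcription factor that low oxygen induces in Arabidopsis, had 185, 197 and 197 FPKM at 0 h and 39.8, 22.9 and 21.4 FPKM at 120 h (log2 fold change -2.79, SE 0.27, adjusted p = 2.4e-06). Alcohol dehydrogenase 1 (f2p60_869_31612), the last enzyme of ethanol fermentation, had 69.7, 67.3 and 69.6 FPKM at 0 h and 20.3, 13.1 and 12.9 FPKM at 120 h (log2 fold change -2.12, SE 0.21, adjusted p = 3.3e-06). Replicate 1 was the highest of the 120 h libraries in both. It was still below every 0 h library, which was a condition of their choice. A second alcohol dehydrogenase 1 transcript, f2p60_1559_24796, fell from 28.2 ± 0.355 to 9.73 ± 2.60 FPKM (adjusted p = 0.0006).

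The other 3 transcripts of the list are homologues of RAP2-3, an ethylene-responsive factor whose group takes part in oxygen sensing in Arabidopsis. The transcript f3p60_1327_26651 had 233, 226 and 221 FPKM at 0 h and 45.3, 37.9 and 35.2 FPKM at 120 h (log2 fold change -2.50, SE 0.17, adjusted p = 4.8e-08). The transcript f2p60_1381_26225 had 220, 217 and 207 FPKM at 0 h and 64.3, 34.3 and 35.8 FPKM at 120 h (log2 fold change -2.29, SE 0.19, adjusted p = 6.2e-07). The most abundant one, f3p60_1128_28605, had 428, 434 and 417 FPKM at 0 h and 171, 151 and 147 FPKM at 120 h (log2 fold change -1.45, SE 0.06, adjusted p = 3.2e-10). Against the mean of 6, 12, 24 and 48 h it was not called, with a difference of 0.51, while the other 5 were lower at 120 h. The call of LBD41 (f5p60_1318_8262) in that comparison lay at the fold minimum. It was lost without replicate 2 or 3 of 120 h (-0.89 and -0.84) and without replicate 3 of 48 h (-0.90). Against 48 h alone, LBD41 differed by 0.14, and the RAP2-3 transcripts f3p60_1327_26651 and f2p60_1381_26225 by -0.22 and -0.43. None of these 3 passed the adjusted p (0.831, 0.481 and 0.204). Alcohol dehydrogenase 1 (f2p60_869_31612) differed from 48 h by -0.71 (adjusted p = 0.0498) and f3p60_1128_28605 by 0.41 (adjusted p = 0.00061). The narrow call of alcohol dehydrogenase 1 leans on replicate 3 of 48 h, with 40.8 FPKM against 18.9 and 20.7 FPKM in the other 48 h libraries. That replicate was also the highest of 48 h in LBD41, f3p60_1327_26651 and f2p60_1381_26225.

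Of 28 class III peroxidases, secreted enzymes that use hydrogen peroxide to cross-link or loosen cell walls, 14 fell and 0 rose (median log2 fold change -0.99), and 12 fell without replicate 1 of 120 h. Without a fold minimum, 18 fell and 2 rose. Peroxidase 5 (f4p60_1269_8729) fell most of all named transcripts, with 72.8, 70.3 and 67.9 FPKM at 0 h and 1.40, 0.86 and 1.69 FPKM at 120 h. Its mean fell to 0.0187 of the 0 h level (log2 fold change -4.96, SE 0.26, adjusted p = 5.7e-09), and its mean at 48 h was 4.63 FPKM. Peroxidase 64 (f2p60_1352_8044) had 63.6, 66.0 and 65.6 FPKM at 0 h and 13.2, 15.4 and 17.2 FPKM at 120 h (log2 fold change -2.03, SE 0.40, adjusted p = 0.00125). Peroxidase 47 (f4p60_1273_8677) had 77.1, 78.6 and 79.0 FPKM at 0 h and 18.0, 23.1 and 25.4 FPKM at 120 h (log2 fold change -1.79, SE 0.10, adjusted p = 8.0e-09). In these 3 transcripts every 120 h library lay far below every 0 h library, but groups without overlap were a condition of their choice. The abundant peroxidase 42 transcripts were not called, and f2p60_1347_26489 had means of 1710 FPKM at 0 h and 1444 FPKM at 120 h (log2 fold change -0.26, adjusted p = 0.102). Peroxidase 21 (f21p60_1261_27184) was higher at 120 h without reaching the fold minimum, at means of 186 and 318 FPKM (log2 fold change 0.77, adjusted p = 4.1e-09). It and the peroxidase 42 transcript were chosen after their values were seen.

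Most transcripts of membrane transport and surface lipids were not called. Of 19 ABC transporters, pumps that move lipids, hormones and other compounds across membranes, 4 fell and 0 rose (5 falls without replicate 1 of 120 h). All 4 falls were near the fold minimum, with log2 fold changes from -1.25 to -1.13. The lowest log2 fold change of the list, -2.25, was of a transcript that did not pass the adjusted p. Without a fold minimum 8 were lower and 5 higher. ABC transporter A family member 3 (f2p38_3130_19064) had 75.6, 82.0 and 80.6 FPKM at 0 h and 46.7, 29.0 and 30.01 FPKM at 120 h (log2 fold change -1.18, SE 0.13, adjusted p = 5.2e-06). Cytochrome P450 86B1 (f2p35_2101_3840), which oxidises very-long-chain fatty acids for suberin in Arabidopsis, had 29.9, 33.8 and 31.97 FPKM at 0 h and 10.9, 10.3 and 10.4 FPKM at 120 h (log2 fold change -1.51, SE 0.32, adjusted p = 0.0022). It was the only call among 13 transcripts of very-long-chain fatty acids, wax and suberin, of which 9 passed the adjusted p with lower levels and 0 with higher ones (median log2 fold change -0.36). In the ion transport list of 13, 2 rose and 1 fell (2 fell without replicate 1 of 120 h): cation/calcium exchanger 1 (f3p60_1980_22126) rose from 0.977 to 4.14 FPKM and cyclic nucleotide-gated ion channel 2 (f2p37_2396_20662) from 2.29 to 6.32 FPKM, while the putative calcium-transporting ATPase 13 (f2p20_3494_18605) fell from 4.58 to 1.53 FPKM.

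Structural proteins of the cell wall went both ways. Of 14 transcripts, 4 fell and 2 rose. Extensin-3 (f6p60_1064_29342), a hydroxyproline-rich glycoprotein that forms a network in the wall, had 243, 234 and 223 FPKM at 0 h and 35.2, 26.5 and 29.7 FPKM at 120 h (log2 fold change -2.91, SE 0.23, adjusted p = 3.5e-07). Its 120 h libraries were far below those of 0 h, but groups without overlap were a condition of its choice. A longer extensin-3 transcript, f3p60_3851_573, fell from 345 to 135 FPKM. The 2 rises were of the proline-rich 33 kDa extensin-related protein (f9p60_914_11928), with 44.0, 48.1 and 49.4 FPKM at 0 h and 162, 122 and 117 FPKM at 120 h (log2 fold change 1.47, SE 0.09, adjusted p = 2.4e-08), and of the repetitive proline-rich cell wall protein 2 (f3p60_1008_29997). The latter had 23.6, 46.0 and 11.2 FPKM at 0 h and 175, 65.7 and 70.7 FPKM at 120 h, and its adjusted p of 0.00222 was 0.0508 when only the 6 libraries were fitted. Both rises are small beside the level of these transcripts in the first day. Transcript f3p60_1008_29997 had means of 731, 651 and 765 FPKM at 6, 12 and 24 h, and those of f9p60_914_11928 are given below.

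Ethylene synthesis changed in opposite directions between 2 homologues of its last enzyme. The 1-aminocyclopropane-1-carboxylate (ACC) oxidase f5p60_1401_7689 had 1.76, 2.19 and 2.15 FPKM at 0 h and 15.3, 15.3 and 15.3 FPKM at 120 h (log2 fold change 2.43, SE 0.08, adjusted p = 3.8e-11). The ACC oxidase 1 homologue f2p53_1118_9998 had 31.7, 27.6 and 30.2 FPKM at 0 h and 3.84, 5.04 and 5.12 FPKM at 120 h (log2 fold change -2.45, SE 0.33, adjusted p = 5.9e-05). They were the only calls among 10 transcripts of ethylene synthesis and perception. Among 14 calcium sensors and kinases 2 rose and 3 fell (4 without replicate 1 of 120 h). Calmodulin-like protein 5 (f2p60_490_36587) had 31.1, 27.1 and 26.8 FPKM at 0 h and 112, 108 and 110 FPKM at 120 h (log2 fold change 1.92, SE 0.12, adjusted p = 3.0e-08), and the calcium-binding protein PBP1 (f2p60_721_33528) fell with -1.75 (adjusted p = 0.00058), and with -2.26 without replicate 1 of 120 h. Calcium-binding protein CML10 (f3p60_616_35021) was the second rise, from 27.5 to 73.3 FPKM.

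Over all transcripts tested, 2.59% rose and 2.14% fell. Of 121 transcription factors tested, 13 rose and 16 fell (median log2 fold change -0.09), and 17 fell without replicate 1 of 120 h. AP2/ERF factors accounted for 5 of the falls and 1 of the rises, the RAP2-3 homologues included. Both WRKY70 homologues fell. The transcript f2p50_1323_8348 had 10.8, 8.43 and 11.7 FPKM at 0 h and 2.65, 1.36 and 1.1 FPKM at 120 h (log2 fold change -2.09, SE 0.23, adjusted p = 6.1e-06), and f2p60_1345_26474 had a log2 fold change of -1.79. The only WRKY factor called up, the WRKY75 homologue f2p37_1325_26690, had an adjusted p of 0.0415, and of 0.0636 to 0.122 when any 1 of the 6 libraries was left out. All 7 AUX/IAA transcripts, which encode repressors of auxin responses, passed the adjusted p with lower levels at 120 h, beside 17.9% of all transcripts tested. Their median log2 fold change was -0.75, and 0 of them passed the fold minimum. Of 8 bHLH factors 3 fell, among them SCREAM2 (f2p60_750_13363), from 21.4 to 7.24 FPKM.

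Basic leucine zipper 43 (f5p60_870_31556) rose most among the named transcription factors, with 32.7, 37.0 and 36.6 FPKM at 0 h and 124, 131 and 133 FPKM at 120 h (log2 fold change 1.84, SE 0.09, adjusted p = 3.0e-09). B-box domain protein 30 (f3p60_1089_29115) had 4.80, 5.14 and 5.08 FPKM at 0 h and 25.4, 18.1 and 18.3 FPKM at 120 h (log2 fold change 1.83, SE 0.12, adjusted p = 4.6e-08). Of the CONSTANS-LIKE 2 transcripts 2 also rose, and f2p60_1586_24574 had 6.36, 6.40 and 6.32 FPKM at 0 h and 14.8, 14.9 and 14.8 FPKM at 120 h. CONSTANS-LIKE 3 (f2p60_1604_24470) fell, from 2.04 to 0.397 FPKM (log2 fold change -1.12, adjusted p = 0.00029), and of the 10 clock and CONSTANS-like factors 3 rose and 1 fell. Homologues of the clock protein LHY, a morning-expressed repressor in Arabidopsis, lay near the fold minimum: f2p60_925_30878 had 50.1 ± 4.07 FPKM at 0 h and 103 ± 26.0 FPKM at 120 h, with 133 FPKM in replicate 1 and 87.2 and 88.7 FPKM in the others (log2 fold change 1.00, and 0.80 without replicate 1). Among MYB factors, MYB58 (f3p60_1224_9210), an activator of lignin genes in Arabidopsis, had 2.27, 1.87 and 2.28 FPKM at 0 h and 5.95, 5.65 and 6.17 FPKM at 120 h (log2 fold change 1.14, adjusted p = 5.4e-06), after 33.3 FPKM at 12 h. PHL5 (f2p60_1457_7420) fell, with 96.4, 77.0 and 88.2 FPKM at 0 h and 48.2, 28.2 and 28.8 FPKM at 120 h. The part of the clock hour in these values was not tested. NAC domain-containing protein 72 (f2p60_1426_25757), a stress-induced factor in Arabidopsis, rose from 16.2 to 35.5 FPKM (log2 fold change 1.08, adjusted p = 1.9e-05). The transcription factor CPC (f2p60_582_15223), of the MYB family, rose from 102 to 209 FPKM.

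**Figure D3:**
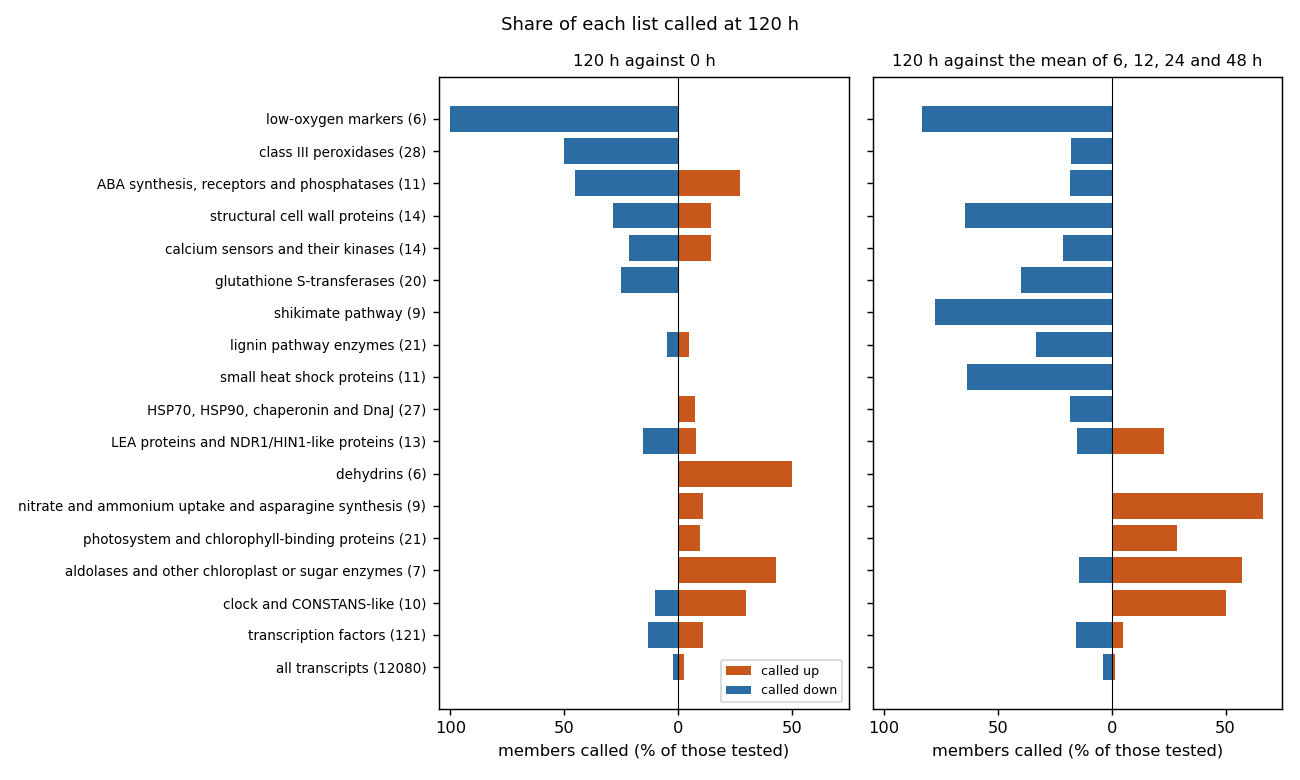
Bars give the share of the tested members of each list (number in brackets) that were called up (orange) or down (blue), at 120 h against 0 h on the left and against the mean of 6, 12, 24 and 48 h on the right. All 6 low-oxygen transcripts and 14 of 28 class III peroxidases were down against 0 h, while small heat shock proteins and shikimate enzymes, with 0 calls against 0 h, were down against the earlier treated roots.

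Transcripts of photosystems and plastid metabolism were more abundant in the roots at 120 h, and replicate 1 of 120 h held the most of them. The summed level of 21 photosystem and chlorophyll-binding transcripts, the marker list for green tissue, was 2982, 2874 and 2958 FPKM at 0 h and 5454, 4290 and 4190 FPKM at 120 h. None of the 21 was at 0 in any of the 6 libraries, and 18 of the 21 were higher in replicate 1 of 120 h than in both other 120 h libraries. Of the 21 transcripts 2 rose and 0 fell against 0 h, 1 rose without replicate 1 and 4 rose without replicate 2. Without a fold minimum 15 passed the adjusted p with higher levels, beside 15.1% of all transcripts tested, and the median log2 fold change was 0.70. The chlorophyll a-b binding protein CP29.3 (f2p60_1040_296752) had 55.6, 54.3 and 56.1 FPKM at 0 h and 265, 190 and 187 FPKM at 120 h (log2 fold change 1.91, SE 0.10, adjusted p = 3.1e-09). The cytochrome b6-f complex subunit 7 (f2p60_651_34449) had a log2 fold change of 1.21, and lost its call without replicate 1 (0.96). The part of green tissue in these and the other differences was not tested.

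Aldolases of sugar metabolism rose alongside. The cytosolic fructose-bisphosphate aldolase 5 (f4p60_1282_8662) had 23.8, 24.0 and 23.6 FPKM at 0 h and 176, 82.3 and 82.7 FPKM at 120 h (log2 fold change 2.11, SE 0.22, adjusted p = 3.8e-06), and the log2 fold change was 1.75 without replicate 1. The chloroplastic aldolase 2 transcript f4p60_1583_24681 had 182, 190 and 183 FPKM at 0 h and 779, 468 and 467 FPKM at 120 h (log2 fold change 1.58, SE 0.14, adjusted p = 1.0e-06, and 1.33 without replicate 1). A second aldolase 2 transcript, f5p60_1679_6100, was at the fold minimum (1.00) and lost its call without replicate 1 (0.82). The 2 other 120 h libraries lay above all 0 h libraries in each of these transcripts, which for aldolase 5 was a condition of its choice. Asparagine synthetase 1 (f2p60_2377_3136), which stores nitrogen in asparagine, rose from 56.2 to 145 FPKM (log2 fold change 1.31, adjusted p = 1.9e-05), also with replicate 1 the highest.

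**Figure D4:**
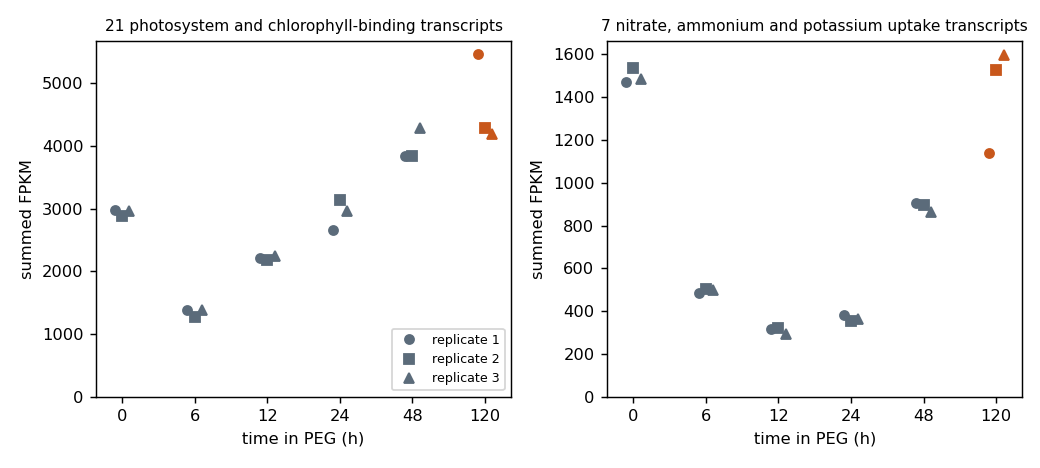
Summed FPKM of the 21 photosystem and chlorophyll-binding transcripts (left) and of 7 nitrate, ammonium and potassium uptake transcripts (right) in each library at each time, with marker shapes for the replicates and 120 h in orange. At 120 h, replicate 1 (circle) is the highest of its time on the left, with 5454 FPKM, and the lowest on the right, with 1137 FPKM.

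Transcripts of nutrient uptake, a task of roots, were near their 0 h level at 120 h. The 7 transcripts of the root uptake list, high-affinity nitrate transporter 2.1, ammonium transporter 1 member 2 and potassium transporter 5, added up to 1472, 1538 and 1486 FPKM at 0 h and to 1137, 1527.7 and 1595 FPKM at 120 h, after 295 to 323 FPKM at 12 h. Nitrate transporter 2.1 (f2p60_1894_22575), which takes up nitrate at low supply, had 448, 464 and 465 FPKM at 0 h and 255, 438 and 439 FPKM at 120 h. The 120 h libraries lay just below the 0 h libraries, apart from replicate 1, which was far lower (log2 fold change -0.32, SE 0.35, adjusted p = 0.53, and -0.06 without replicate 1). Against the mean of 6, 12, 24 and 48 h, a comparison that uses no 0 h library, this transcript was higher by 2.51 on the log2 scale (SE 0.28, adjusted p = 4.3e-06) and a second one, f2p37_1996_4289, by 2.75 (adjusted p = 1.9e-06). Potassium transporter 5 (f2p60_2781_19668) had 52.1, 54.5 and 53.3 FPKM at 0 h and 52.8, 62.2 and 64.4 FPKM at 120 h, and was higher than at the other treated times by 1.55 (adjusted p = 3.0e-09). Of 9 transcripts of nitrogen uptake and asparagine synthesis, 6 were called up in that comparison and 0 down, with or without replicate 1 of 120 h and replicate 3 of 48 h.

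Against the mean of the 4 earlier treated times, 179 transcripts (1.48%) were higher and 437 (3.62%) were lower at 120 h, 5.10% of those tested. The counts were 176 and 488 without replicate 1 of 120 h and replicate 3 of 48 h. Cell wall, peroxidase and phenylpropanoid transcripts were among the lower ones with the largest differences. The proline-rich 33 kDa extensin-related protein (f9p60_914_11928), named above, had means of 1806, 1312, 1160 and 385 FPKM at 6, 12, 24 and 48 h and 134 ± 24.8 FPKM at 120 h, a difference of -2.93 (SE 0.07, adjusted p = 9.8e-13). It was therefore still above 0 h, and far under its level in the first day. Another repetitive proline-rich cell wall protein 2 transcript, f2p60_1006_30003, was not called against 0 h (log2 fold change 0.94). It had 1031 FPKM at 24 h and 125 FPKM at 120 h (-2.71, adjusted p = 1.1e-08). Of the 14 structural cell wall proteins 9 were lower and 0 were higher (10 lower without both libraries).

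Peroxidase 4 (f2p59_1311_26810) had 9.86, 6.65 and 8.20 FPKM at 0 h, a mean of 180 FPKM at 12 h, and 15.2, 12.2 and 13.6 FPKM at 120 h (-3.03, SE 0.14, adjusted p = 3.5e-10). CYP73A100 (f2p60_956_11446), a cinnamate 4-hydroxylase at the entry of the phenylpropanoid pathway, had 274 FPKM at 6 h and 17.1, 12.2 and 13.5 FPKM at 120 h (-3.04, SE 0.16, adjusted p = 1.8e-09), which was also under its 0 h libraries of 52.4, 48.9 and 53.5 FPKM. Of 21 lignin pathway enzymes, 7 were lower than at the earlier treated times and 0 were higher (8 and 1 without both doubted libraries), while against 0 h only CYP73A100 fell and the cinnamyl alcohol dehydrogenase 9 homologue f6p60_1412_25819 rose. Without a fold minimum, 11 of the 21 were above 0 h and 2 below.

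Lower levels at 120 h than at the earlier treated times were also found in stress and supply genes. Of 11 small heat shock proteins, chaperones that hold unfolded proteins, 7 were lower at 120 h than at the earlier treated times (6 without replicate 1 of 120 h) and 0 were called against 0 h, where the median was 0.10. The 18.2 kDa class I protein f3p60_805_32408 had means of 12.0 FPKM at 0 h, 71.2 FPKM at 6 h and 13.8 FPKM at 120 h. Of 9 shikimate pathway enzymes, which supply the aromatic amino acids for lignin, 7 were lower than at the earlier treated times and 0 were called against 0 h, where 6 passed the adjusted p with lower levels. A phospho-2-dehydro-3-deoxyheptonate aldolase 1 (f2p60_1596_24598), the first enzyme of the pathway, had 85.0 ± 5.39 FPKM at 0 h, 216 ± 4.44 FPKM at 6 h and 60.4 ± 1.87 FPKM at 120 h. In the regulators, ethylene-responsive factor ERF017 (f8p60_1108_28852) had 26.6 FPKM at 24 h and 0.37, 0.61 and 0.14 FPKM at 120 h (-2.55, adjusted p = 7.9e-05), and the zinc finger protein ZAT11 (f2p24_969_11433) had 37.5 FPKM at 6 h and 4.29, 3.67 and 2.56 FPKM at 120 h (-2.52, adjusted p = 6.1e-10). Against 0 h, ZAT11 had a log2 fold change of -0.93, just outside the fold minimum, and was called without replicate 1 of 120 h (-1.05).

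Among the transcripts higher at 120 h than at the earlier treated times were some LEA proteins whose level had dropped and returned. Of 13 LEA and NDR1/HIN1-like transcripts, 3 were higher in that comparison and 2 were lower (median difference -0.39). The Lea5 homologue f29p60_719_13862, one of the most abundant named transcripts, had means of 5451 FPKM at 0 h, 1101 FPKM at 12 h and 5510 FPKM at 120 h, with 4132, 6273 and 6126 FPKM in the 3 libraries. It differed from the earlier treated times by 1.60 (adjusted p = 2.9e-08), and a further one, f3p60_781_32678, by 1.60 as well. The chloroplastic aldolase 2 transcript f4p60_1583_24681 had 56.1 FPKM at 12 h and 571 ± 180 FPKM at 120 h, a difference of 2.12 (adjusted p = 1.7e-09). Of 10 clock and CONSTANS-like factors 5 were higher and 0 lower (4 higher without replicate 1 of 120 h).

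**Figure D5:**
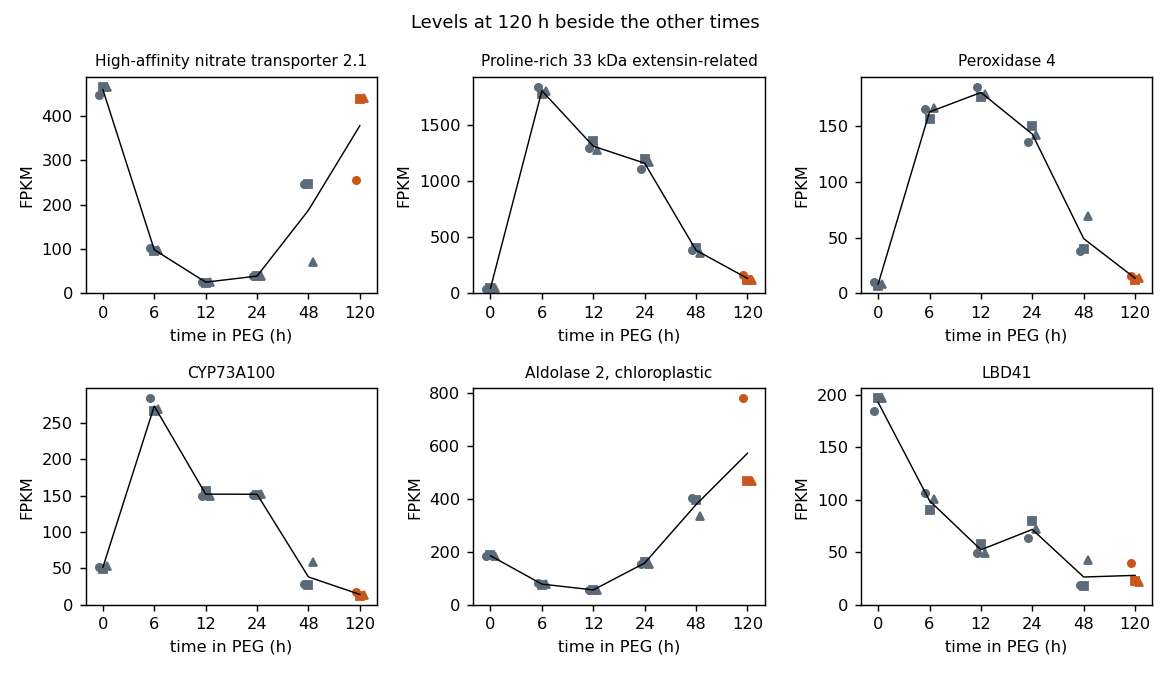
FPKM of 6 transcripts in every library at each time (points, with 120 h in orange and marker shapes for the replicates) and the mean of each time (line), with times at equal spacing on the x axis. Nitrate transporter 2.1 was at 255, 438 and 439 FPKM in the libraries of 120 h, the proline-rich, peroxidase 4 and CYP73A100 transcripts had come down from their peaks at 6 or 12 h, aldolase 2 was at its highest mean at 120 h, and LBD41 was low from 48 h.

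The largest rises of all were in transcripts without an entry name. The transcript f3p37_1363_26310 had 12.3, 12.0 and 12.6 FPKM at 0 h and 428, 824 and 816 FPKM at 120 h (log2 fold change 5.64, SE 0.31, adjusted p = 9.9e-09). The transcript f2p60_561_357721 had 12.2, 12.3 and 11.1 FPKM at 0 h and 495, 478 and 507 FPKM at 120 h, 41.6 times the 0 h mean (log2 fold change 5.26, SE 0.13, adjusted p = 1.9e-12). The first was also high at 48 h, with 1130 FPKM, and the second had its highest mean at 120 h. Among the transcripts with an entry name that belong to no group above, AAA-ATPase ASD (f2p60_1749_5714), a mitochondrial protein, had 75.5, 81.0 and 78.1 FPKM at 0 h and 21.4, 19.0 and 19.1 FPKM at 120 h (log2 fold change -1.93, SE 0.07, adjusted p = 4.3e-11). The AOP1.2-like dioxygenase f3p60_1294_26869 had 468, 505 and 462 FPKM at 0 h and 125, 111 and 107 FPKM at 120 h (log2 fold change -2.06, SE 0.38, adjusted p = 0.00084). Lysosomal Pro-X carboxypeptidase (f3p60_1686_5899) rose from 0.95, 1.11 and 0.87 FPKM to 3.68, 8.63 and 7.75 FPKM, and auxin-binding protein ABP19a (f2p60_1053_10589) from 0.28, 0.39 and 0.37 FPKM to 5.37, 2.88 and 3.47 FPKM. Both were low transcripts, and groups without overlap were a condition of their choice. The short transcripts f2p60_233_39502 and f2p60_274_17215 had 20.8 to 40.3 FPKM and 15.05 to 34.1 FPKM at 0 h and are listed at 0 in all 3 libraries of 120 h. Only 11 of the 572 calls were of transcripts under 300 bases.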

How the data were processed

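Roots were sampled at 6 times with 3 libraries each. The authors aligned paired-end reads to full-length PacBio transcripts and used RSEM (version 1.2.31) for quantification, while HTSeq 0.6.0 appears in the submitters' processing notes. The deposited values are FPKM, so no count test was run, in place of the study's test on counts. The study gives its clean reads as a total over all samples; depth per library was estimated here, and the spacing of low FPKM values puts it roughly at 10000000 to 14000000 fragments in the 6 libraries. Column codes were read as 0 h for C and as the treated times in numbered order for T. Transcripts with at least 1 FPKM in 3 libraries were tested with limma 3.58.1 in R 4.3.3 on log2(FPKM + 1), with time as a factor over 18 libraries (12 residual degrees of freedom), trend and robust moderation, and Benjamini-Hochberg adjustment over 12080 transcripts. The fit was tested on simulated data. Fold changes on this scale understate those of low transcripts. Ratios to 0 h are of mean FPKM.

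Names came from the study's annotation tables, some of them shortened in the copies at hand, of which 1056 entries matched and 681 had an entry name; the fold change columns there are the authors' comparisons and were not used. Gene lists and members were chosen with earlier results of these data known. Transcripts to name were chosen as the 15 largest non-overlapping rises and falls with an entry name, up to 4 called members of each list, the marker lists, 2 unnamed transcripts in each direction and up to 10 transcripts of the comparison with the earlier treated times; not all of these 120 are printed, and others are named as chosen after seeing their values. Alternatives were another pseudocount, other filters, rescaling by median ratios, a replicate block and plain moderation. Others were the 6 libraries alone, no fold minimum and leaving out each library of 0 h or 120 h. Figures were drawn with matplotlib 3.10.9 and tables made with pandas 2.3.3 in Python 3.11.15. No column of per-sample values was left out.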

Additional observations from a re-analysis of the deposited data

Results flagged for a closer look

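Some named transcripts were called in 1 direction at 120 h and in the other at an earlier time, and in each case limma's test of the difference between the 2 times passed the threshold. CYP73A100 (f2p60_956_11446) fell at 120 h (-1.79) and rose at 6, 12 and 24 h (2.38, 1.54 and 1.54), and 120 h differed from these times by -4.18, -3.34 and -3.34 (adjusted p = 2.6e-10, 6.3e-09 and 2.2e-08). The glutathione S-transferase parC (f9p60_892_31310), an enzyme of detoxification, fell at 120 h (-1.41) and rose at 6 and 12 h (2.00 and 1.35), with differences of -3.41 and -2.76 (adjusted p = 7.4e-08 and 1.3e-06).

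The opposite order was found in plastid and day-length homologues. Chloroplastic aldolase 2 (f4p60_1583_24681) rose at 120 h (1.58) and fell at 6 and 12 h (-1.24 and -1.70), with differences of 2.81 and 3.28 (adjusted p = 3.5e-10 and 1.5e-10). A second aldolase 2 transcript (f5p60_1679_6100) differed from 6 h by 2.46 (adjusted p = 4.7e-11), the alkenal/one oxidoreductase f3p60_1416_25856 by 3.08 (adjusted p = 2.2e-09) and CONSTANS-LIKE 2 (f2p60_1469_7402) by 2.69 (adjusted p = 2.8e-13). The call of f5p60_1679_6100 at 120 h was lost without replicate 1 of 120 h. Groups of 3 libraries are too small for a test of single outlying samples.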

How the results depend on the processing

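The counts of rises and falls stayed within 1.5 times the reported ones under every setting but 1. Without a fold minimum, 1819 rises and 2160 falls passed against 0 h, and 2680 and 3237 against the mean of the earlier treated times. Leaving out 1 library of 0 h or 120 h gave 289 to 336 rises and 237 to 298 falls against 0 h, and 174 to 194 rises and 416 to 474 falls against the earlier times. The setting without replicate 3 of 48 h, alone or with replicate 1 of 120 h, was chosen after seeing the data. No call of a named transcript was reversed under any setting. Uncalled differences near 0 could change sign, as in the nitrate transporter 2.1 transcript f2p37_1996_4289 (-0.06 against 0 h, and 0.16 without replicate 1 of 120 h). Without replicate 1 of 120 h, 6 of the 120 named transcripts lost their call against 0 h and 1 gained it, and without replicate 2 it was 7 and 2. Replicate numbers did not pair the libraries, since same-numbered libraries of 0 h and 120 h deviated with correlations of -0.093, -0.047 and -0.040. With the number as a replicate block, 312 rises and 256 falls were called, and 2 of the 120 named transcripts lost their call. Depth is known only roughly, so transcripts listed at 0 cannot be told apart from very low ones.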
